A study of Mus musculus with 39 samples.

Results

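Lung from adult 9V/null mice was compared with lung from WT mice on 10 Affymetrix Mouse Genome 430 2.0 arrays, out of 39 in the series. The 9V/null mice carry a D409V allele over a null allele of the gene mutated in Gaucher disease, and the 6 adult 9V/null lung arrays are 2 each at 12, 18 and 28 weeks. The 4 WT lung arrays are all from mice of 28 weeks, and age is thus matched in the comparison at 28 weeks alone. Both groups were on a mixed FVB, C57BL/6J and 129SvEvBrd background, and each array held RNA pooled from 3 mice. Arrays were chosen by their labels for genotype, tissue and age, and the 2 lung arrays of 9V/null mice at 4 weeks were left out. Adult 4L lung (V394L/V394L mice on a mixed C57BL/6J and 129SvEvBrd background, 6 arrays at the same ages), adult 9V/null liver (6 arrays) and WT liver (3 arrays at 28 weeks) were set against it to show where 9V/null lung differed. Nothing in the labels says which mice entered a pool, so p-values measure the spread between arrays of pooled RNA.

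In Gaucher disease a lysosomal enzyme that breaks down glucosylceramide is deficient, and macrophages that engulf dying cells fill with the lipid and become Gaucher cells. Lung holds macrophages in the air spaces, which clear surfactant and in mice carry the lectin Siglec-F, and other macrophages in the interstitium, which are closer to those of other organs. Lysosomal genes share a short E-box in their promoters that is bound by TFEB, a transcription factor that responds to lysosomal load, and macrophages with much stored lipid are known to turn on a common set of genes for lipid sensing, proteolysis and chemotaxis.

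The signals were linear intensities that the authors had scaled to the same trimmed mean on every array. They were floored at 16 and turned to log2, and folds are log2 differences from a limma fit over all 39 arrays, which all enter the estimate of the spread. With lung arrays alone 4813 probe sets were called in place of 4218. Where signals of the lower group lay under the floor, as in Fgb, B430306N03Rik and single WT arrays of Ccl3 and Gja5, the fold is a lower bound of its size. A gene, represented by its probe set with the highest mean, counted as called where the fold was 1.8 or more in either direction and the FDR did not exceed 0.01. In adult 9V/null lung against WT lung 756 of 18193 genes were called higher (4.16%) and 693 lower (3.81%). Of 45037 probe sets, 1589 were called higher (3.53%) and 2629 lower (5.84%). Without WT replicate 1, 2774 probe sets were called in all, and without the 18-week arrays 1997. In whole tissue, more cells of a type and more RNA per cell cannot be told apart.

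Each fold is relative to the whole signal of its array, and hybridisation, Actb and Gapdh control probe sets stood higher on the 9V/null arrays. Whether this reference or the controls themselves differed between the groups was not tested. The mean of the 9 hybridisation controls, bacterial and phage transcripts added to each sample, was 13.04 to 13.87 (log2) on the 9V/null arrays and 12.7 to 12.9 on the WT arrays, a difference of 0.65. The mean of the 6 Actb and Gapdh controls differed by 1.23 in the same direction. Array medians lay the other way, at 257.2 to 349.0 on the 9V/null arrays and at 349.3 to 427.8 on the WT arrays. The Actb offset was not particular to 9V/null lung. Its 3′ control was at 15.8 to 15.99 (log2) in WT lung, and at 16.68 to 17.4 in adult 4L lung. In liver it was at 15.71 to 16.12 in WT and at 16.72 to 17.31 in adult 9V/null mice. Centring the arrays on these controls lowered every log2 fold by these amounts, so a positive fold smaller than 0.65 or 1.23 turned negative. Of probe sets, 2013 were then called higher and 1983 lower with quantile normalization, 4134 and 1260 with centring on array medians, 233 and 10792 with centring on the hybridisation controls, and 77 and 23579 with centring on the Actb and Gapdh controls. Of the genes called higher, 643 were also called higher with quantile normalization and with median centring, 110 with the hybridisation controls as well and 38 with the Actb and Gapdh controls as well. Of the genes called lower, 208 were also called lower with quantile normalization and with median centring. The same 208 remained under all 5 scalings. Since both control centrings lower every fold, they are no check on genes called lower. Signs of RNA quality also separated the groups. The log2 signal of Actb at the 3′ end minus that at the 5′ end was 0.21 to 0.37 in 9V/null lung and 0.41 to 0.77 in WT lung, and that of Gapdh was -0.39 to -0.14 against -0.13 to 0.25. The probe set for the 5′ end of 18S ribosomal RNA was at 12.91 to 16.4 (log2) against 11.38 to 12.81, and that for its 3′ end at 8.9 to 11.03 against 11.4 to 12.18. Their part in the results was not tested. Counts under both control centrings are given beside the gene groups. With the hybridisation controls 0.605% of all genes were called higher and 22.2% lower, and with the Actb and Gapdh controls 0.209% and 53.9%.

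**Figure D1:**
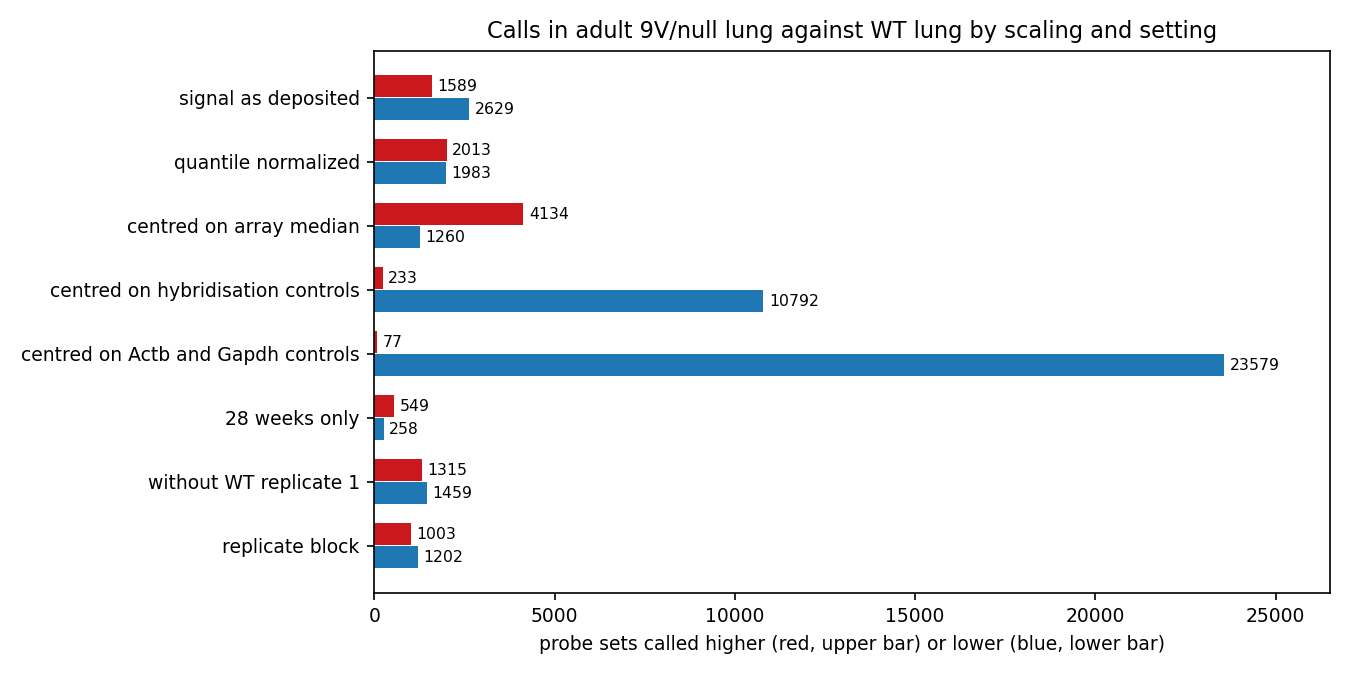
Number of probe sets called higher and lower in adult 9V/null lung against WT lung in 8 settings of the comparison, with the number of probe sets on the axis and the settings side by side. Quantile normalization gave 2013 higher and 1983 lower calls, and centring on the Actb and Gapdh controls gave 77 and 23579.

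Lung markers were high on all 10 arrays. The signals of 17 alveolar type 2 cell and surfactant genes summed to between 419003 and 466284 in WT lung and between 616720 and 884416 in 9V/null lung, against 58720 to 74039 in WT liver. Hepatocyte genes were lower in 9V/null lung than in WT lung. The 26 measured summed to between 47706 and 89950 in WT lung, to between 18202 and 37552 in 9V/null lung, and to between 2284169 and 2520426 in WT liver. Summed cardiac muscle genes overlapped between the groups (155239 to 216487 in 9V/null lung and 158255 to 186697 in WT lung), as did monocyte, thymus and skeletal muscle genes. Summed neutrophil genes did not overlap (66036 to 116383 against 30533 to 39778), a sum in which Lcn2 is the single member called. Sums of erythroid and platelet genes (42107 to 89538 against 28956 to 39888) did not overlap either. The same held for T cell and NK cell genes (15192 to 25526 against 8960 to 14699). Eif2s3y, a gene of the Y chromosome, was at 62.0 to 149 on both 18-week arrays and replicate 1 at 28 weeks and at 1930 to 2171 on the other 3 arrays of 9V/null lung, and at 532 in WT replicate 1 against 1338 to 1896 in the other 3, while the labels give no sex. The part of these differences in the results was not tested.

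Of the genes called in the comparison, 30 were called higher and 37 lower in each of 21 settings. These are the fit as described and fits that change the scaling or floor or add a block for the replicate number. The others take 28 weeks alone, or leave out an age or an array. The filter on low values and the looser FDR threshold were not among them. The 30 higher genes were Ccl3, Mmp12, Ly6i, Noxo1, Wfdc17, Gja5, Trem2, A4galt, Tnfrsf9, Npy, Slc39a2, Lcn2, Otub1, Dpysl4, Saa3, Pfn1, Spdl1, 2010003K11Rik, Ccl17, Gpnmb, Ccr7, Ccl9, Zranb3, Cd68, Stk25, Vnn1, Ccl6, Sdf2l1, Eif4a1 and Alyref. For the 37 lower genes the control centrings are no check, so the counts of 30 and 37 are not like measures. Among the 37 lower genes were the liver plasma protein and metabolic genes Fgb, Fgg, Serpina1c, Kng1, Cyp2a12, Cyp2c50 and Akr1c6, the alveolar macrophage genes Siglecf, Krt79 and Fabp1, and genes in none of the lists such as Casp8ap2, Nipbl, Pbrm1, Kdm2a and Gabpa.

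The promoters of 5 genes on which the results turn are given from 250 bases before to 50 bases after the start in RefSeq's annotation of GRCm38.p6, on the coding strand. Ccl3, Mmp12 and Gpnmb are genes of lipid-laden or activated macrophages with large folds, and Ctsd and Gla are lysosomal enzymes called higher. Capitals mark matches to 3 motifs searched on both strands, the E-box CACGTG of the CLEAR element, the AP-1 motif TGACTCA and the PU.1 motif GAGGAAGT. No marked match overlaps another. Mmp12 has 2 starts in the table and both are given.
Ccl3, chr11:83649329-83649628, minus strand, no match: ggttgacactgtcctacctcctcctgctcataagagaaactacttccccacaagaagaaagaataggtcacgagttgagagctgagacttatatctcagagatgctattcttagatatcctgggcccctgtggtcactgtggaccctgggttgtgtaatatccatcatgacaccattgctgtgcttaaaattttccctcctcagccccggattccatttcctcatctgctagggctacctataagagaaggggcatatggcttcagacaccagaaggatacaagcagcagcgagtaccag
Mmp12, chr9:7344147-7344446, plus strand, PU.1 motif in reverse: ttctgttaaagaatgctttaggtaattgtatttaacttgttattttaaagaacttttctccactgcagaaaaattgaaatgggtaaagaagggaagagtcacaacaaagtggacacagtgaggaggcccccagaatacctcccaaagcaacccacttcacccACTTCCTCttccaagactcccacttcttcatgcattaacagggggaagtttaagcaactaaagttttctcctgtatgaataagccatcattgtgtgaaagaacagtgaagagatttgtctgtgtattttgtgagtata
Mmp12, chr9:7347124-7347423, plus strand, AP-1 motif in reverse: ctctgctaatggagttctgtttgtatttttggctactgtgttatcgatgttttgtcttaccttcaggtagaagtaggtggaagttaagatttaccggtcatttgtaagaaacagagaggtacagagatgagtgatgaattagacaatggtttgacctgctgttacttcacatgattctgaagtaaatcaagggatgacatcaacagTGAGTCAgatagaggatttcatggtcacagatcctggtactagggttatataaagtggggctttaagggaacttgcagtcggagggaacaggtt
Gpnmb, chr6:49036268-49036567, plus strand, AP-1 motif: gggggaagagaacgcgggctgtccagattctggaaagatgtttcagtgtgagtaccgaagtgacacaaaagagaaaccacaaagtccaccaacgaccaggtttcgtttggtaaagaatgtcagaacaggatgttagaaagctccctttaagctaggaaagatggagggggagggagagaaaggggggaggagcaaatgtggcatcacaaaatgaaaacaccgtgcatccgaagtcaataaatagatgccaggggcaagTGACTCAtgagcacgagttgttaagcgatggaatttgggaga
Ctsd, chr7:142387778-142388077, minus strand, 2 E-boxes: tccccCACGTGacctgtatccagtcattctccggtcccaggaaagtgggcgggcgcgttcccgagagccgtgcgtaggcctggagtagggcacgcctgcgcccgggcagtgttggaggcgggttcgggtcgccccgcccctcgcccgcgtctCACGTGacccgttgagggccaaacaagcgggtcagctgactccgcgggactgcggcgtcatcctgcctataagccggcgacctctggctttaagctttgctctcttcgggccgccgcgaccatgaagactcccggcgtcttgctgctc
Gla, chrX:134600956-134601255, minus strand, 2 E-boxes and the PU.1 motif in reverse: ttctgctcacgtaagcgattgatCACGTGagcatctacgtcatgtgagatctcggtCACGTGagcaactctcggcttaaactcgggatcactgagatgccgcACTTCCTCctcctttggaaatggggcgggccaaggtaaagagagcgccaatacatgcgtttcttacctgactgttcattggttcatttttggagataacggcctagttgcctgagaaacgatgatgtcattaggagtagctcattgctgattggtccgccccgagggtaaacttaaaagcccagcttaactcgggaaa

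The E-box was present in a promoter of 8.09% of 27025 genes in the table and of 10.2% of the 14452 that are also on the array. It was present in 8 of 28 lysosomal hydrolases with a promoter in the table, in 4 of 10 cathepsins (Ctsa, Ctsd, Ctsf and Ctsl) and in 4 of 11 V-ATPase subunits. The AP-1 motif was present in 5.95% of all genes in the table, in 5.33% of those on the array and in 6.24% of the 625 genes called higher that have a promoter there. Among the 26 of these that were called in each of the 21 settings it was present in 6 (2010003K11Rik, A4galt, Cd68, Gpnmb, Mmp12 and Tnfrsf9). In the same 26 genes the E-box was present in 1 and the PU.1 motif in 1. Of the 625 genes called higher, 81 had the E-box and 25 the PU.1 motif. Of 549 genes called lower with a promoter, 59 had the E-box, 22 the AP-1 motif and 20 the PU.1 motif. The kappaB motif was present in 0.228% of genes on the array, in 3 of the 625 and in 1 of the 549. It was in 0 of the 26 and in 0 of 24 chemokine ligands with a promoter. Differences between these shares were not tested. The PU.1 motif was present in 3.69% of all genes and in 3.47% of those on the array. These are matches of letters in a fixed window.

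The 10 highest folds among called genes of the same sign at each age, with no overlap between the 10 arrays, were in Ccl3, Mmp12, Ly6i, Noxo1, Wfdc17, B430306N03Rik, Gja5, Trem2, A4galt and Tnfrsf9. The signal of Ccl3, a chemokine that draws monocytes and is made by activated macrophages, was 47.8, 10.9, 36.4 and 25.4 on the WT arrays. On the 6 arrays of 9V/null lung it was 2233 at the lowest, 3749 in the median and 4776 at the highest. Every 9V/null array was thus far above every WT array, and the log2 fold was 6.89 (SE 0.62, adjusted p = 1.7e-07 by limma). At 28 weeks alone it was 6.81 (adjusted p = 6.05e-05 by limma).

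Mmp12, the macrophage elastase, had signals of 295, 246, 229 and 167 in WT lung and of 4735 to 10122 in 9V/null lung, with a median of 7030. The groups did not overlap, and the log2 fold was 4.93 (SE 0.45, adjusted p = 1.7e-07 by limma). Wfdc17, a small secreted protein with a WAP domain made by activated macrophages, was at 1374, 1047, 982 and 1427 in WT lung and at 8903, 24135 and 51388 (lowest, median and highest) in 9V/null lung. Its log2 fold was 4.33 (SE 0.32, adjusted p = 1.02e-08 by limma), with the highest signals on both 18-week arrays. Noxo1, the organizer subunit of the superoxide-producing oxidase NOX1, was at 85.1, 83.8, 144 and 100 in WT lung and at 1392, 2045 and 3281 in 9V/null lung. Its log2 fold was 4.34 (SE 0.44, adjusted p = 9.37e-07 by limma).

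Trem2, a lipid-sensing receptor of macrophages, was at 78.4, 65.0, 151 and 129 in WT lung and at 773, 1612 and 2483 in 9V/null lung, a log2 fold of 3.90 (SE 0.41, adjusted p = 1.46e-06 by limma). A4galt, the galactosyltransferase that turns lactosylceramide into globotriaosylceramide, was at 67.3, 51.3, 274 and 32.0 in WT lung and at 614, 1158 and 1395 in 9V/null lung, a log2 fold of 3.79 (SE 0.37, adjusted p = 5e-07 by limma). Gja5, the connexin of arterial endothelium and atrial muscle, was at 31.8, 29.8, 24.2 and 13.8 in WT lung and at 265, 467 and 726 in 9V/null lung, a log2 fold of 4.13 (SE 0.34, adjusted p = 4.77e-08 by limma). All 3 genes were called also at each age, without overlap between the groups. Gja5 stood alone among its lists, being the single member called higher of 30 endothelial and of 23 cardiac muscle genes, also under either control centring, where 7 and 18 endothelial and 1 and 8 cardiac muscle genes were lower.

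The other 3 of the 10 were Ly6i, a small membrane protein of the Ly6 family (227 to 811 in WT lung, 5459 to 14969 in 9V/null lung), Tnfrsf9, the costimulatory receptor 4-1BB (89.1 to 270 against 1107 to 2079), and B430306N03Rik. The last had signals of 12.1, 15.9, 8.8 and 10.9 in WT lung, all under the floor, and of 519 and 447 at 12 weeks, 568 and 691 at 18 weeks and 166 and 39 at 28 weeks. It was the lone gene of the 10 not called at 28 weeks alone (log2 fold 2.33, adjusted p = 0.0362 by limma).

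**Figure D2:**
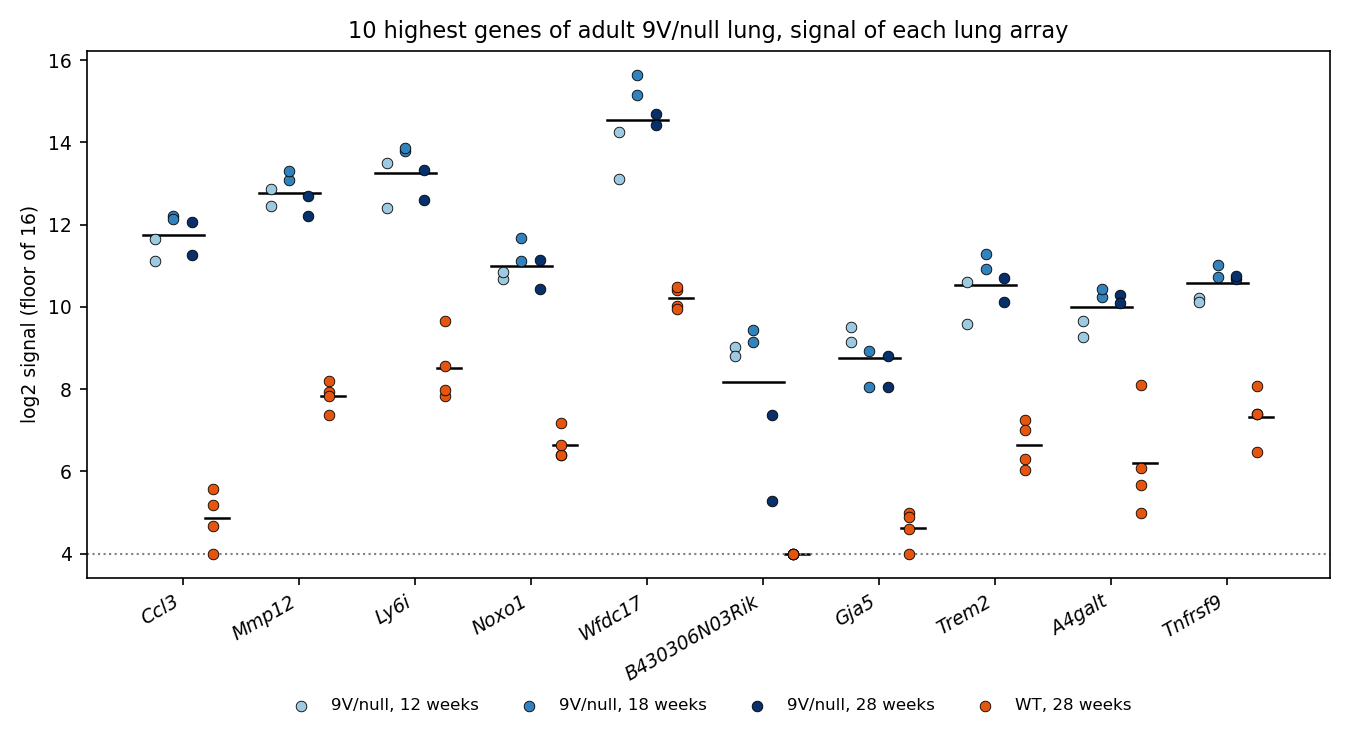
Signal on a log axis of the 10 genes with the highest folds on each of 6 arrays of 9V/null lung at 12, 18 and 28 weeks and 4 arrays of WT lung, where a point is an array. Signals are to be compared within a gene. All 9V/null points of each gene lie above its WT points, from Ccl3 (2233 to 4776 against 10.9 to 47.8) to Tnfrsf9 (1107 to 2079 against 89.1 to 270).

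Chemokine ligands were among the groups with the most calls. Of 34 measured, 11 were higher and none lower (Ccl3, Ccl17, Ccl9, Ccl6, Cxcl9, Ccl22, Cxcl1, Ccl5, Cxcl2, Cxcl16 and Ccl25), with a median log2 fold of 0.93 against 0.00 over all genes. With the hybridisation controls 5 were higher and none lower, and with the Actb and Gapdh controls 4 were higher and 7 lower, which also turned the median negative. Ccl6, a CC chemokine of macrophages and neutrophils, was at 13102, 13283, 13658 and 14513 in WT lung and at 48470, 63599 and 84164 in 9V/null lung. The WT arrays lay close together and below all others, and the log2 fold was 2.24 (SE 0.17, adjusted p = 1.02e-08 by limma). The related Ccl9 had a log2 fold of 2.55 (SE 0.22, adjusted p = 1.17e-07 by limma) and Ccl17, a ligand of CCR4 made by dendritic cells and alternatively activated macrophages, one of 2.75 (SE 0.36, adjusted p = 1.67e-05 by limma). Cxcl9, which interferon-gamma induces, was at 146, 37.0, 30.8 and 21.5 in WT lung and at 84.1, 210 and 422 in 9V/null lung, so the groups overlapped although it was called (log2 fold 2.22, SE 0.46, adjusted p = 0.00144 by limma), a call lost without WT replicate 4.

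Of 19 chemokine receptors, 1 was higher and 1 lower, near the shares of 4.16% and 3.81% over all genes. With the hybridisation controls 1 was higher and 3 lower, where 22.2% of all genes were lower. With the Actb and Gapdh controls 1 was higher and 7 lower, where 53.9% of all genes were lower. Ccr7, which guides dendritic cells and T cells to lymph nodes, was at 193, 320, 178 and 221 in WT lung and at 1093, 1247 and 2214 in 9V/null lung (log2 fold 2.60, SE 0.35, adjusted p = 1.89e-05 by limma). Ackr3, a scavenging receptor for Cxcl12, was at 14973, 14963, 12103 and 13384 in WT lung and at 3666, 6914 and 7593 in 9V/null lung (log2 fold -1.19, SE 0.22, adjusted p = 0.000456 by limma). In adult 4L lung Ackr3 was at 4574 to 9177, also below every WT array. Dendritic cell genes as a list had 5 higher, among them Ccl17, Ccr7, Ccl22 and the actin-bundling Fscn1, and 1 lower of 17, with 2 and 2 under the hybridisation controls and 2 and 4 under the Actb and Gapdh controls.

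The study compiled 2 lists of cytokine-regulated genes on these samples, which are therefore not independent evidence of their direction. Of 12 genes regulated by IFNg, Ccl3, Ccl9, Ccl6 and Cxcl1 were higher and none lower (median log2 fold 1.099), with 3 and 0 under the hybridisation controls and 3 and 2 under the Actb and Gapdh controls, where the median was negative. Of 11 genes regulated by IL-4, Mmp12, Ccl17, Ccl22, Mmp19, Retnla and Il1rn were higher and none lower (median 1.56), with 2 and 1 under either control centring. Retnla, a secreted marker of alternative activation, was at 6537, 6059, 3897 and 8207 in WT lung and at 11120, 17673 and 32962 in 9V/null lung. Its groups did not overlap, and its log2 fold of 1.56 (SE 0.41, adjusted p = 0.00821 by limma) was called in only 5 of the 21 settings, being lost without any single array except replicate 2 at 28 weeks.

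Genes of lipid-laden macrophages made up another group with many calls. Of 27 measured, 13 were higher and none lower (Mmp12, Trem2, Gpnmb, Ctsk, Acp5, Atp6v0d2, Tyrobp, Lgals3, Ctsd, Plin2, Apoc1, Cd9 and Ctsb), with a median log2 fold of 0.91. With the hybridisation controls 6 were higher and 1 lower, and with the Actb and Gapdh controls 4 and 4 with a negative median. Without the 18-week arrays Apoc1, Atp6v0d2 and others of small fold lost the call. Gpnmb, a membrane glycoprotein of lipid-filled macrophages whose promoter holds the AP-1 motif, was at 1964, 2693, 2489 and 2386 in WT lung and at 10642, 15149 and 23667 in 9V/null lung (log2 fold 2.72, SE 0.39, adjusted p = 4.56e-05 by limma). Plin2 coats lipid droplets and Lgals3 is the lectin galectin-3. The summed signal of the 27 genes was 341236 to 371737 in WT lung and 599703 to 849839 in 9V/null lung.

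Of 19 Fc receptors and myeloid adaptors, 11 were higher and none lower (median 1.38), the largest share among the immune lists plotted, with 6 and 0 under the hybridisation controls and 2 and 2 under the Actb and Gapdh controls. They included the signaling chains Fcer1g and Tyrobp, through which Fc receptors and Trem2 act. Fcer1g was at 3730, 3384, 3373 and 3070 in WT lung and at 7891, 10306 and 17502 in 9V/null lung (log2 fold 1.73, SE 0.15, adjusted p = 9.76e-08 by limma). Clec5a, a lectin that signals through Tyrobp, was at 136, 137, 137 and 94.8 in WT lung and at 760, 1090 and 1545 in 9V/null lung (log2 fold 3.13, SE 0.52, adjusted p = 0.000198 by limma). The IgG receptors Fcgr2b, Fcgr3 and Fcgr4 were also called.

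Of 21 genes used as macrophage markers in all tissues, 8 were higher (Cd68, Fcer1g, Cd84, Tyrobp, Cyba, Aif1, Fcgr3 and Lyz2) and none lower (median 0.67), with 4 and 0 under the hybridisation controls and 1 and 6 under the Actb and Gapdh controls, where the median was negative. Cd68, the lysosomal glycoprotein by which macrophages are stained, was at 2861, 3168, 3485 and 2938 in WT lung and at 8884, 18045 and 28416 in 9V/null lung (log2 fold 2.45, SE 0.21, adjusted p = 6.65e-08 by limma). Adgre1, which encodes F4/80, the other common stain, was at 2404, 2649, 2016 and 2469 in WT lung and at 1809, 2130 and 3157 in 9V/null lung. Those groups overlapped, and the log2 fold of -0.09 (SE 0.15) was called, as lower, only under the Actb and Gapdh controls.

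Complement genes were higher in 5 of 19, led by the C1q chains C1qb, C1qc and C1qa, made largely by macrophages, with 1 higher and 2 lower under the hybridisation controls and 0 and 10 under the Actb and Gapdh controls, and 3 higher without replicate 2 at 12 weeks or replicate 1 at 28 weeks. Genes of MHC class II presentation were higher in 4 of 12 (H2-Aa, H2-Ab1, H2-Eb1 and H2-DMa), but in none under either control centring, where 0 and 3 were lower. Of 10 genes of NADPH oxidases, Noxo1, Cyba, Rac2 and Ncf4 were higher, and 1 of them under either control centring, with 2 lower under the Actb and Gapdh controls. Cyba, the membrane subunit p22phox, was at 11826, 12286, 13875 and 11618 in WT lung and at 22331, 33983 and 47756 in 9V/null lung (log2 fold 1.46, SE 0.20, adjusted p = 3.1e-05 by limma). Interferon response genes had 3 of 27 higher, but 1 without WT replicate 4, 5 without WT replicate 1 or replicate 1 at 12 weeks, and none at 28 weeks alone. Under the hybridisation controls 1 was higher and 1 lower, and under the Actb and Gapdh controls 0 and 8. T cell and NK cell genes had 3 of 19 higher, but none under either control centring, where 0 and 3 were lower. B cell and plasma cell genes had 2 of 18 and neutrophil and monocyte genes 1 each of 17 and 12, counts of 1 or 2 against a background of 4.16%, and without any single WT array none of the B cell genes was called. With the hybridisation controls 0 B cell genes were higher and 1 lower, 1 neutrophil gene was higher and 0 lower, and 0 monocyte genes were higher and 2 lower. With the Actb and Gapdh controls these counts were 0 and 2, 1 and 5, and 0 and 7.

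Lcn2, the neutrophil gene called, encodes lipocalin 2, which binds iron carriers of bacteria and is also made by epithelium and macrophages. It was at 5871, 7150, 6548 and 5285 in WT lung and at 42348, 54722 and 69127 in 9V/null lung (log2 fold 3.14, SE 0.20, adjusted p = 2.42e-09 by limma). Saa3, an acute-phase protein of macrophages and epithelium chosen after its values were seen, was at 585, 534, 413 and 537 in WT lung and at 2150, 3943 and 5758 in 9V/null lung (log2 fold 2.89, SE 0.25, adjusted p = 8.78e-08 by limma). Both genes were called in each of the 21 settings.

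**Figure D3:**
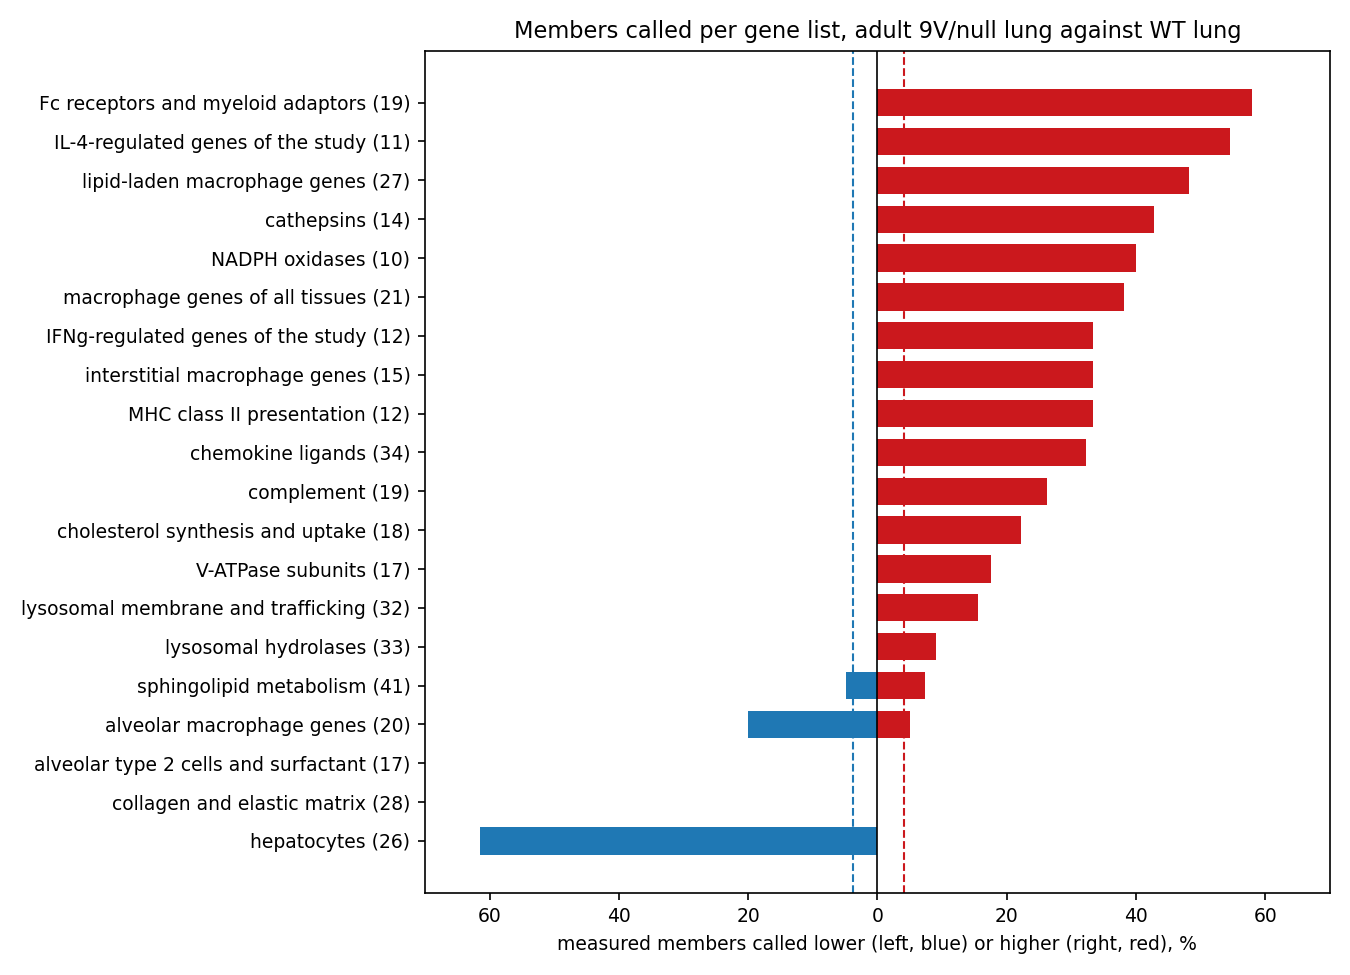
Percent of the measured members of 20 gene lists called higher and lower in adult 9V/null lung against WT lung, with dashed lines at the shares over all genes (4.16% higher and 3.81% lower). Fc receptors and myeloid adaptors had 11 of 19 members higher as deposited, but 2 higher and 2 lower when arrays were centred on the Actb and Gapdh controls, and hepatocyte genes had 16 of 26 lower.

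Lysosomal genes were counted by class, with no test between the classes, and Ctsa is in more than one. Of 14 cathepsins, the proteases of the lysosome, 6 were higher (Ctsk, Ctsz, Ctsd, Ctsc, Ctsa and Ctsb) and none lower, with a median log2 fold of 0.91. With quantile normalization, which called 5.01% of all genes higher, 3 were higher, with the hybridisation controls 2 were higher and 1 lower, and with the Actb and Gapdh controls 1 and 1 with a negative median, and without the 18-week arrays 3 were higher. Ctsk, the collagen-cleaving cathepsin K of osteoclasts and activated macrophages, was at 1901, 1871, 1806 and 1953 in WT lung. It was at 7839, 10393 and 14483 in 9V/null lung, so that the lowest 9V/null array was far above the highest WT array (log2 fold 2.48, SE 0.37, adjusted p = 5.87e-05 by limma). Ctsd, an aspartyl protease whose promoter has 2 E-boxes, was at 19492, 21774, 23392 and 21363 in WT lung and at 42269, 50910 and 72346 in 9V/null lung (log2 fold 1.34, SE 0.15, adjusted p = 2.18e-06 by limma).

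Of 33 lysosomal hydrolases 3 were higher (Acp5, Gla and Ctsa) and none lower, with a median log2 fold of 0.22. With the hybridisation controls 2 were higher and 6 lower, and with the Actb and Gapdh controls none was higher and 23 lower and both centrings made the median negative. Acp5, the tartrate-resistant acid phosphatase long used as a serum marker of Gaucher disease, was at 1504, 1779, 1661 and 1974 in WT lung and at 4233, 7280 and 10357 in 9V/null lung (log2 fold 1.99, SE 0.20, adjusted p = 9.37e-07 by limma). Gla, the alpha-galactosidase that removes galactose from globotriaosylceramide, the product of A4galt, was at 758, 743, 777 and 555 in WT lung and at 1730, 1959 and 2669 in 9V/null lung (log2 fold 1.53, SE 0.20, adjusted p = 1.61e-05 by limma). The groups did not overlap in either gene.

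Lysosomal membrane and trafficking genes had 5 of 32 higher (Cd68, Slc11a1, Laptm4a, Psap and Gnptg) and none lower, with 1 and 7 under the hybridisation controls and 1 and 19 under the Actb and Gapdh controls, and 3 higher without the 18-week arrays. Psap, the precursor of the saposins that help the enzyme reach its lipid, was at 30085, 35811, 39063 and 34315 in WT lung and at 58707, 64880 and 72416 in 9V/null lung (log2 fold 0.91, SE 0.20, adjusted p = 0.00174 by limma), a call lost without WT replicate 1. Subunits of the V-ATPase, the pump that acidifies the lysosome, had 3 of 17 higher (Atp6v0d2, Tcirg1 and Atp6v0b), but none at 28 weeks alone or under either control centring, where 1 and 7 were lower. Without the 18-week arrays 1 was higher. Genes of high signal had more higher calls in general. Of 1561 genes with a mean of at least 13 on the log2 scale, 12.6% were called higher and 1.79% lower, against 1.7% to 5.03% higher in bins of lower signal, and Ctsd, Ctsz, Psap and Laptm4a are among the former.

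Of 41 sphingolipid genes, Gla, Ugcg and Psap were higher and Sgpp1 and Sgms2 lower, against 4.16% and 3.81% of all genes, with a median log2 fold of 0.03, and 1 higher and 13 lower under the hybridisation controls and 0 and 25 under the Actb and Gapdh controls. Ugcg, the ceramide glucosyltransferase that makes glucosylceramide, was at 776, 581, 584 and 357 in WT lung and at 2315 and 2849 at 12 weeks, 931 and 1102 at 18 weeks and 1721 and 1213 at 28 weeks (log2 fold 1.49, SE 0.36, adjusted p = 0.00396 by limma). All 6 arrays lay above WT, but the mean over all its probe sets was negative (-0.24), and the gene was called in only 10 of the 21 settings and not without replicate 2 at 12 weeks, replicate 2 at 18 weeks, replicate 1 at 28 weeks or WT replicate 2, 3 or 4. Sgpp1, a phosphatase that returns sphingosine 1-phosphate to sphingosine, was at 3674, 3995, 3226 and 4172 in WT lung and at 1477, 1707 and 2670 in 9V/null lung (log2 fold -1.06, SE 0.19, adjusted p = 0.000344 by limma). Cholesterol synthesis genes had 4 of 18 higher (Mvd, Fdps, Mvk and Fdft1), but none under either control centring, where 1 and 8 were lower.

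Of 20 alveolar macrophage genes, 1 was higher (Atp6v0d2) and 4 lower (Fabp1, Siglecf, Krt79 and Perp) and 15 were not called, with a median log2 fold of 0.18, with none higher and 6 lower under the hybridisation controls and none higher and 9 lower under the Actb and Gapdh controls. Siglecf, the lectin by which mouse alveolar macrophages and eosinophils are recognised, was at 2129, 2449, 1966 and 2010 in WT lung. In 9V/null lung it was at 461 and 1208 at 12 weeks, 207 and 935 at 18 weeks and 181 and 185 at 28 weeks, below WT on every array and lowest at the age of the WT mice (log2 fold -2.44, SE 0.46, adjusted p = 0.000559 by limma). At 28 weeks alone the log2 fold was -3.54 (adjusted p = 0.0015 by limma), a call lost without either array of that age (adjusted p = 0.0448 and 0.0316 by limma). Siglecf is also the 1 gene called, as lower, of 18 eosinophil, basophil and mast cell genes (median log2 fold -0.247), against 3.81% of all genes. Their sum, Siglecf included, was 10091 to 15671 in 9V/null lung and 18084 to 20583 in WT lung. Which cells account for the lower Siglecf was not tested. Krt79, a keratin also listed for alveolar macrophages, was at 4041, 3813, 3811 and 4079 in WT lung and at 463, 894 and 2813 in 9V/null lung (log2 fold -2.10, SE 0.29, adjusted p = 3.09e-05 by limma).

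Fabp1, a fatty acid-binding protein listed here for alveolar macrophages and abundant also in liver, was at 5520, 3864, 4669 and 3860 in WT lung and at 303, 611 and 1815 in 9V/null lung (log2 fold -2.76, SE 0.33, adjusted p = 6.94e-06 by limma). Acaa1b, a peroxisomal thiolase of fatty acid oxidation, was at 3489, 3663, 4301 and 3516 in WT lung and at 243, 656 and 2165 in 9V/null lung (log2 fold -2.42, SE 0.25, adjusted p = 1.28e-06 by limma). All 4 genes showed the same order of arrays within an age, with replicate 2 at 12 and at 18 weeks above replicate 1. Plet1 (12096 to 20303 in 9V/null lung, 8093 to 9609 in WT lung), Krt19 and Car4, also of the alveolar macrophage list, lay above WT without overlap but were not called as deposited, with log2 folds of 0.93, 0.61 and 0.35 that turn negative under the Actb and Gapdh controls. Marco, a scavenger receptor, overlapped at 580 to 3787 in 9V/null lung and 846 to 1712 in WT lung, while 1 of its 2 probe sets was called higher, and Chil3 and Mrc1, added after their values were seen, likewise overlapped and were not called as deposited.

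**Figure D4:**
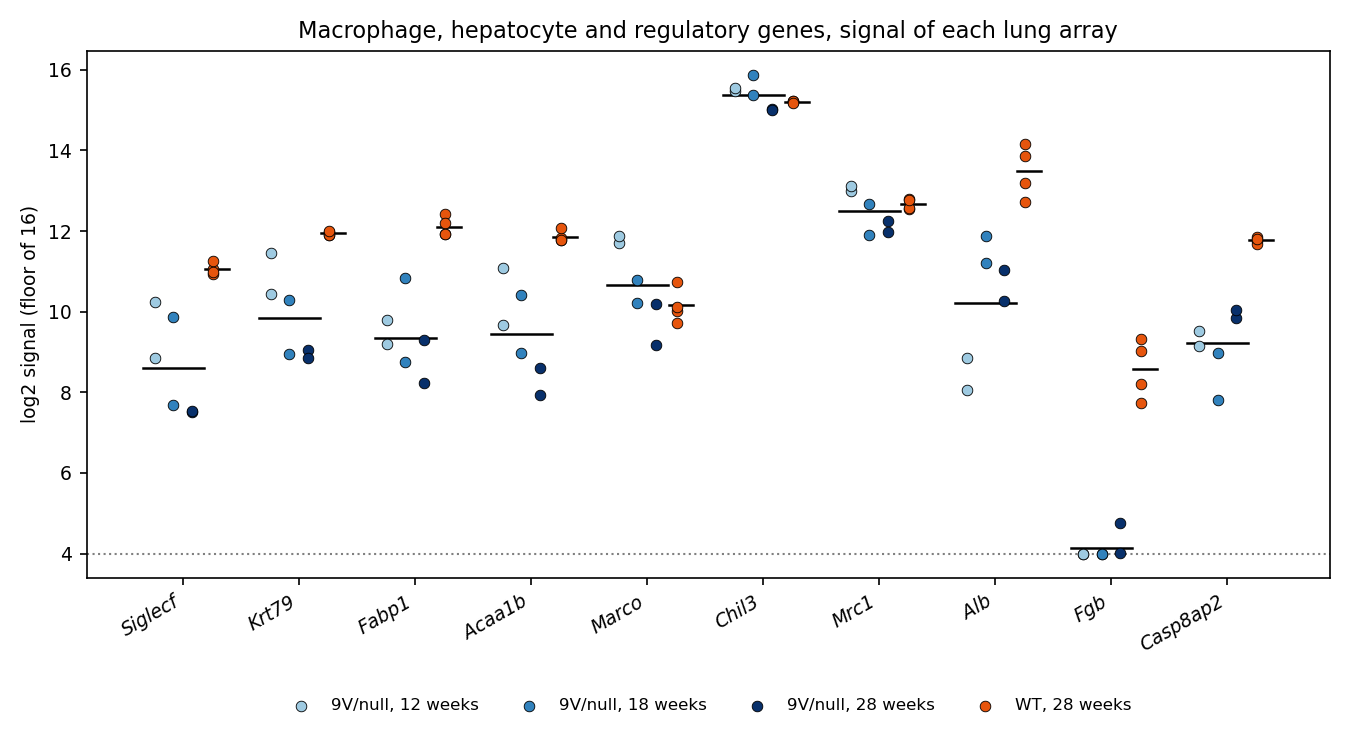
Signal on a log axis of 10 genes in WT lung and in 9V/null lung, the latter by age (12, 18 and 28 weeks), where a point is an array and signals are to be compared within a gene. Siglecf (181 to 1208 against 1966 to 2449), Krt79, Fabp1, Acaa1b, Alb, Fgb and Casp8ap2 are lower on each 9V/null array, while Marco, Chil3 and Mrc1 overlap between the groups.

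Hepatocyte genes had 16 of 26 lower and none higher (median log2 fold -2.10), with 21 lower under the hybridisation controls and 25 under the Actb and Gapdh controls. Fgb, the beta chain of fibrinogen, was at 642, 519, 213 and 297 in WT lung and at 4.4 to 27.1 in 9V/null lung, with 4 of 6 arrays under the floor (log2 fold -4.44 as floored, a lower bound of its size, SE 0.66, adjusted p = 5.53e-05 by limma). Alb was at 18343, 14898, 9321 and 6752 in WT lung and at 265 to 3775 in 9V/null lung. These genes also varied widely between arrays of 1 line. In adult 4L lung Alb ran from 662 to 40507 and Apoa1 from 24.0 to 7437. Against 4L lung 1 of the 26 was lower in 9V/null lung, against 0.286% of all genes. The source of these transcripts was not tested. Without WT replicate 1 the list had 9 lower, against 2.56% of all genes, without the 12-week arrays 10, and at 28 weeks alone 3. Liver-enriched genes, at least 8-fold higher in WT liver than in WT lung, were 10.4% of the genes called lower and 3.84% of all genes, and also 7.94% of those called higher.

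Other genes called lower in each of the 21 settings, chosen after their values were seen, were Casp8ap2, which binds caspase-8 and histone gene transcription complexes, Nipbl, which loads cohesin, Kdm2a, a histone demethylase, and Cyp1a1, the cytochrome P450 induced through the aryl hydrocarbon receptor. Casp8ap2 was at 3708, 3453, 3254 and 3542 in WT lung and at 225, 651 and 1047 in 9V/null lung (log2 fold -2.55, SE 0.28, adjusted p = 2.18e-06 by limma). Cyp1a1 was at 7713, 13642, 8189 and 10399 in WT lung and at 2355, 3279 and 3874 in 9V/null lung (log2 fold -1.65, SE 0.32, adjusted p = 0.000689 by limma). In both genes each 9V/null array was below each WT array. The low level of Casp8ap2 was not particular to 9V/null lung. It was at 543 to 1146 in adult 4L lung, and at 204 to 832 in 9V/null liver against 1383 to 1759 in WT liver.

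Genes of lung structure showed few calls. None of 17 alveolar type 2 cell and surfactant genes was called, although 12 of them were higher without overlap between the groups, against 13.2% of all genes, and with a fit on the 10 arrays alone 5 were called higher, against 3.96% of all genes. With the hybridisation controls none was called, and with the Actb and Gapdh controls 0 were higher and 3 lower. Surfactant protein C, Sftpc, was at 53273, 46367, 53294 and 57177 in WT lung and at 89572, 114194 and 147336 in 9V/null lung, with a log2 fold of 1.15 (SE 0.40, adjusted p = 0.0391 by limma) that turned negative, to -0.08, under the Actb and Gapdh controls and, to -0.26, in the mean over all its probe sets. Airway secretory cells had 2 of 20 higher, among them Pigr, the receptor that carries IgA across epithelium (2261 to 2998 in WT lung, 6753 to 8804 in 9V/null lung), with none called under the hybridisation controls and 0 higher and 5 lower under the Actb and Gapdh controls. None of 28 collagen and elastic matrix genes was called, but 2 and 25 were lower under the control centrings in the same order. Of growth factors, Vegfa, made by alveolar type 1 cells, was at 15226, 13474, 12807 and 12126 in WT lung and at 5079, 6258 and 7410 in 9V/null lung (log2 fold -1.13, SE 0.20, adjusted p = 0.000309 by limma). Over all 64 lists, 7 had no member called, 47 had a member called higher and 26 a member called lower.

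Few genes passed the test between ages within 9V/null lung, where 2 arrays an age leave many differences undetected. Of 45037 probe sets, 4 were called between 18 and 12 weeks (0.00888%), 3 between 28 and 12 weeks (0.00666%) and 2 between 28 and 18 weeks (0.00444%), with 6731, 4729 and 3686 at an unadjusted p under 0.05 by limma. Ang, the ribonuclease angiogenin, was at 120 and 170 at 12 weeks, 390 and 387 at 18 weeks and 6097 and 5373 at 28 weeks, and at 10419, 9558, 7910 and 7830 in WT lung. The log2 difference between 28 and 12 weeks was 5.32 (SE 0.63, adjusted p = 0.00078 by limma). Its probe set ends in _s_at, which can match several transcripts of a family, so the gene measured is uncertain. In 9V/null liver Ang was at 1010 and 2115 at 12 weeks, 4743 and 3580 at 18 weeks and 30341 and 102595 at 28 weeks. It was at 59643 to 77286 in WT liver and at 4976 to 15667 in adult 4L lung, where 12 weeks had 4976 and 7678. Against WT, 491 genes were called at 12 weeks (2.7%), 2042 at 18 weeks (11.2%) and 380 at 28 weeks (2.09%). With 2 arrays an age these counts rest on single arrays. Of probe sets, 1391, 4676 and 807 were called at the 3 ages, but 101 at 12 weeks without its replicate 1 and 323 without its replicate 2, 1468 and 1321 at 18 weeks without its replicate 1 or 2, and 43 and 112 at 28 weeks without its replicate 1 or 2. Without a WT array 690 to 1044 were called at 12 weeks (lowest without replicate 4) and 361 to 518 at 28 weeks (lowest without replicate 4). At 28 weeks, where age is matched, 285 genes were higher (1.57%) and 95 lower (0.522%), and 135 genes were higher at each age (0.742%) and 30 lower (0.165%).

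At 28 weeks, where the same WT arrays serve, 9 of 19 Fc receptors and myeloid adaptors were higher, 7 of 27 lipid-laden macrophage genes, 6 of 21 macrophage genes of all tissues, 5 of 34 chemokine ligands and 2 of 14 cathepsins, against 1.57% of all genes. Of 20 alveolar macrophage genes 4 were lower and of 26 hepatocyte genes 3, against 0.522%. The 4-week arrays, which are in the fit but in none of the groups compared, had Ccl3 at 167 and 259, Mmp12 at 408 and 464, Trem2 at 358 and 675 and Gja5 at 1039 and 361, in each case above the 4 WT arrays.

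Against adult 4L lung, 98 genes were higher in 9V/null lung (0.539%) and 52 lower (0.286%). The lines differ in alleles and in strain background, which cannot be told apart. Of the 30 genes called higher against WT in each of the 21 settings, 13 were also higher than in 4L lung, among them Ccl3, Mmp12, Wfdc17, Gpnmb, Noxo1, Ly6i, Ccl6, Ccl9, Cd68, Lcn2 and Saa3. In 4L lung, Ccl3 was at 24.1 to 227 with a median of 113, Mmp12 at 177 to 467 with a median of 312, and Gpnmb at 1850 to 2777 with a median of 1920. The highest 4L array was below the lowest 9V/null array in all 3, and the log2 differences between the lines were 5.15, 4.61 and 2.90 (adjusted p = 3.6e-06, 1.21e-07 and 1.94e-05 by limma).

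Other genes stood at like signals in both lines. Gja5 was at 172 to 676 in 4L lung, with a log2 difference between the lines of -0.06 (adjusted p = 0.976 by limma), Pfn1, which binds actin monomers, at 23918 to 67080 (difference -0.07, adjusted p = 0.936 by limma) and the neuropeptide gene Npy at 1068 to 3001 (difference -0.11, adjusted p = 0.953 by limma). These p-values do not show that the lines are alike. The 3′ Actb control also stood at like signals in both lines and lower in WT lung. The part of that offset in these genes was not tested. The largest difference between the lines was in Gdpd3, a lysophospholipase D, at 118 to 522 in 4L lung and at 12435 to 20773 in 9V/null lung (log2 difference 5.71, adjusted p = 2.51e-12 by limma). Its level in WT lung was 8391 to 9206, and it was not called against WT. By list, 9 of 27 lipid-laden macrophage genes, 7 of 34 chemokine ligands and 5 of 19 Fc receptors and myeloid adaptors were higher than in 4L lung, against 0.539% of all genes. None of 12 MHC class II, 19 complement or 15 interstitial macrophage genes was higher. Of 20 alveolar macrophage genes 1 was higher, and Krt79 (log2 difference -1.78) and Fabp1 (-2.25) were lower, against 0.286% of all genes. The same 9V/null arrays serve here and against WT, so these counts are not independent of those. H2-Eb1 was lower than in 4L lung (-0.92), a call lost without replicate 2 at 12 weeks (-0.84), though higher than in WT lung (1.03).

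**Figure D5:**
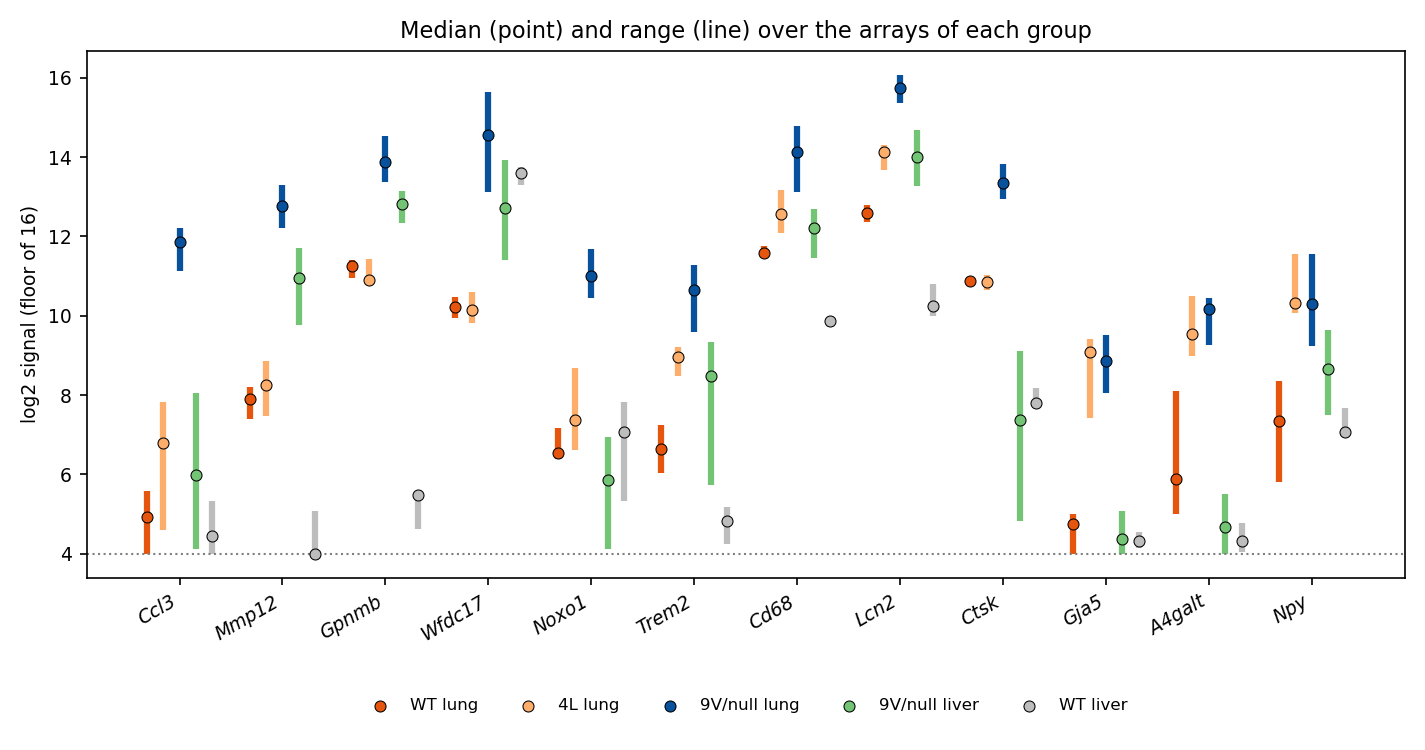
Median and range of the signal (log axis) of 12 genes in WT lung (4 arrays), 4L lung (6), 9V/null lung (6), 9V/null liver (6) and WT liver (3), where signals are to be compared within a gene. Ccl3, Mmp12 and Gpnmb are higher in 9V/null lung than in 4L lung, Gja5, A4galt and Npy lie at like signals in both lines, and Wfdc17 is high also in WT liver.

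The effect of genotype in lung was set against that in liver of the same line. Lung and liver arrays were treated as independent, although the labels do not say whether they share mice. The log2 fold in lung exceeded that in liver in 44 genes (0.242%) and was below it in another 44 (0.242%). Of probe sets 173 were called, and 73 to 133 without any single lung array, the lowest without replicate 1 at 12 weeks. Of the 30 genes called higher in lung in each of the 21 settings, the effect was larger in lung in 12 and smaller in Gpnmb. Noxo1 was at 17.2 to 122 in 9V/null liver and 40.0 to 227 in WT liver, and its lung effect exceeded its liver effect by 5.42 (adjusted p = 8.86e-05 by limma). Wfdc17 was at 10063 to 13822 in WT liver and at 2729 to 15516 in 9V/null liver, a difference between tissues of 5.11 (adjusted p = 2.17e-06 by limma). Ccl3 was at 5.6 to 39.9 in WT liver and at 17.2 to 265 in 9V/null liver, a difference of 5.32 (adjusted p = 0.00414 by limma). That call was lost without replicate 1 at 12 or at 28 weeks or WT lung replicate 2 or 4 (adjusted p of 0.0101 to 0.0134 by limma).

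Gpnmb went the other way, at 24.6 to 47.2 in WT liver and at 5172 to 9108 in 9V/null liver, so that its effect was smaller in lung by a log2 difference of -4.85 (adjusted p = 8.86e-05 by limma). Mmp12 was at 13.8 to 33.8 in WT liver and at 866 to 3357 in 9V/null liver, and the difference between its effects was not called (-1.65, adjusted p = 0.181 by limma). Of its 3 WT liver signals 2 lay under the floor, so the size of that difference depends on the floor. Cd68 (difference 0.12, adjusted p = 0.889 by limma) and Trem2 (0.66, adjusted p = 0.625 by limma) were likewise not called between tissues. Ctsk was at 204 to 287 in WT liver and at 28.1 to 553 in 9V/null liver, a difference of 3.13 (adjusted p = 0.00417 by limma), a call lost without replicate 1 at 12 weeks or any WT lung array (adjusted p of 0.0105 to 0.0114 by limma). Of the alveolar macrophage genes, 3 had effects below those in liver, Siglecf by -4.01, Fabp1 by -3.53 and Krt79 by -2.81 (adjusted p = 0.00333, 0.000531 and 0.00152 by limma).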

How the data were processed

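The deposited values are linear intensities, 1 for each probe set and array, made with GCOS 1.1 (per the submitters' processing notes), and the authors had set all arrays to one trimmed mean. The study's own folds used RMA values in another program. After 64 Affymetrix controls were removed, 45037 of 45101 probe sets were tested. Of these, 34945 had 1 symbol, 932 several and 9160 none, which gave 18193 genes. Signals were raised to a floor of 16 and then log2-transformed. One limma model (3.58.1, R 4.3.3) with 18 group means, 39 arrays and 21 residual degrees of freedom gave each comparison, with the Benjamini-Hochberg FDR taken over all probe sets. The adult fold is the mean of 12, 18 and 28 weeks minus WT. On simulated data with 200 probe sets each, 0 of 44437 unchanged probe sets were called, 1 at 1.5-fold, 30 at 2-fold and 94 at 4-fold. A gene not called may thus still differ. The simulation had independent noise, no offset between groups and fewer changed probe sets than were called here, so its rates need not carry over. Its 1.5-fold changes lie under the cut of 1.8-fold. The precision is set by the number of arrays.

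The members, the gene lists (1122 of 1223 symbols matched) and the alternatives were chosen with earlier results of these data known. Named genes were the 10 highest and 10 lowest called folds of the same sign at each age without overlap, the study's cytokine-regulated genes, up to 4 called members of each list with the largest folds, up to 5 highest and 5 lowest called genes of each further comparison, and defining markers. Others, among them the genes listed as called in each of the 21 settings and the list members given without values, were chosen after their values were seen. The alternatives changed the floor (64), normalization, filter (a mean log2 under 7), model, threshold (FDR 0.05) or arrays, and both centrings on control probe sets were added after the data were seen. Replicate numbers were not used as pairs. Their pairing was examined among the 10 lung arrays only, and not between lung and liver. The mutated gene is not analysed here.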

Additional observations from a re-analysis of the deposited data

Results flagged for a closer look

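In WT lung, where 1 array far from the other 3 marks about 1 in 20 genes by chance, 4 of 105 genes named here had such an array. Clec5a was at 94.8 and Gla at 554.7 in replicate 4, Pigr at 2260.8 in replicate 3 and Krt19 at 10612.7 in replicate 1, each below the other arrays.

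The effect of genotype differed between lung and liver by the test of the difference for the following genes, given as the log2 fold in lung minus that in liver. It was larger in lung for Noxo1 (5.42), Ccl3 (5.32), Wfdc17 (5.11), Gja5 (4.02), B430306N03Rik (3.89), A4galt (3.45), Ctsk (3.13), Ccl9 (3.11), Zranb3 (2.63), Otub1 (2.12), Pfn1 (1.93), Ccl6 (1.83), Cd84 (1.82), Stk25 (1.59), Pigr (1.26) and Fcer1g (1.25). It was smaller in lung for Serpina1c (-4.98), Fgb (-4.96), Gpnmb (-4.85), Fgg (-4.18), Cyp2a12 (-4.14), Cyp2c50 (-4.08), Siglecf (-4.01), Fabp1 (-3.53), Acaa1b (-2.95) and Krt79 (-2.81). Between 12 and 28 weeks Ang differed by 5.32.

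The lung arrays of 9V/null mice at 4 weeks, which are in the fit but in none of the groups compared, were above all 4 WT arrays in 8 of the 10 genes with the highest adult folds. The lower of both arrays had a signal of 166.7 for Ccl3, 407.8 for Mmp12, 335.5 for Noxo1, 1526.6 for Wfdc17, 125.5 for B430306N03Rik, 360.8 for Gja5, 357.8 for Trem2 and 399.8 for A4galt. The mice were younger than the WT mice. The control probe sets were also higher in adult 9V/null lung, by 0.65 (log2) for the hybridisation controls and by 1.23 for the Actb and Gapdh controls.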

How the results depend on the processing

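The count of 4218 probe sets called against WT lung became 2205 with a replicate block, 1997 without the 18-week arrays, 807 at 28 weeks only, 8102 with array weights, 6827 at an FDR of 0.05, 11025 with centring on the hybridisation controls and 23656 with centring on the Actb and Gapdh controls, and 2774 to 4011 without each array in turn. At 12 weeks it was 1391, and 2351 with a floor of 64, 504 with the block, 12960 with the Actb and Gapdh controls and 101 to 1044 without each array. At 18 weeks it was 4676, and 2716 with the block, 12965 and 21055 with the hybridisation and the Actb and Gapdh controls, and 1321 to 3897 without each array. At 28 weeks it was 807, and 1593 with a floor of 64, 195 with the block, 2652 and 14963 with both control centrings, and 43 to 518 without each array.

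Between 18 and 12 weeks the count of 4 became 21 with a floor of 64, 0 with the block, 0 with lung arrays only and 1 to 14 without each array. Between 28 and 12 weeks 3 became 44 with a floor of 64, 17 with quantile normalization, 18 with the filter, 5 with the block, 9 with lung arrays only and 0 to 17 without each array, and between 28 and 18 weeks 2 became 18, 6, 1, 0, 6 and 0 to 21 in the same order. Against 4L lung 271 became 412 with lung arrays only and 195 to 216 without each 9V/null array, while the 4L arrays were not left out. Between lung and liver 173 became 504 with a floor of 64, 283 with the filter, 58 with the block and 73 to 133 without each lung array. Calls summed over gene lists became 60 at 28 weeks, 261 with median centring and 529 with the Actb and Gapdh controls, and 133 to 153 without each array. Same-numbered arrays correlated by -0.057 to 0.048 in their deviations, so the numbers were not taken as pairs. The block lowered the residual degrees of freedom from 21 to 18 and moved the median log2 fold against WT lung from -0.11 to -0.15.

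With the Actb and Gapdh controls the log2 fold turned negative, by construction of the shift of 1.23, for Apoc1 (-0.237), Atp6v0b (-0.17), C1qa (-0.008), Ccl25 (-0.075), Ctsa (-0.308), Ctsc (-0.286), Fdft1 (-0.205), Fdps (-0.131, at 28 weeks -0.139), H2-Aa (-0.042, -0.081), H2-Ab1 (-0.183, -0.232), H2-DMa (-0.305), H2-Eb1 (-0.194, -0.206), Laptm4a (-0.294, -0.27), Lyz2 (-0.3), Mvk (-0.177), Ncf4 (-0.224), Plin2 (-0.191), Psap (-0.312), Rac2 (-0.013), Slc11a1 (-0.022, -0.098), Tcirg1 (-0.066) and, at 28 weeks, Ctsd (-0.037). Ugcg turned to -0.243 in the mean over its probe sets, and the cause was not tested.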
